A study of Mus musculus with 16 samples.

Results

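Ear skin given lysophosphatidylcholine (LPC) during imiquimod treatment was compared with ear skin given saline at day 7, in 4 mice of each group. These 8 RNA-seq libraries, out of 16 in the series, were chosen by their titles, and the comparison was made across all genes. All mice were BALB/c, 8 weeks old, and all ears received imiquimod, so no ear without imiquimod enters the comparison. LPC mice were injected in the ear skin with 10 µl of 10 mM LPC, and vehicle mice with the same volume of normal saline, once daily. The labels plan 6 injections, and 4 mice per treatment were killed at day 4 and 4 at day 7. The libraries hold RNA of whole ear skin, in which fewer cells of a type and less RNA per cell cannot be told apart. With 1 strain and 1 dose, the comparison does not extend to other strains or doses.

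Imiquimod activates Toll-like receptor 7 in immune cells, and on mouse skin it gives a psoriasis-like inflammation with a thickened epidermis, neutrophils and cytokines of the IL-23 and IL-17 axis. LPC is a membrane phospholipid with 1 acyl chain instead of a pair; it is made by phospholipases and lowered by the enzymes that turn it into lysophosphatidic acid or add back a chain. Keratinocytes leave the basal layer, switch from basal to suprabasal keratins and in the last layers make filaggrin, loricrin and late cornified envelope proteins, which form the skin barrier. In inflamed or wounded epidermis, keratinocytes make wound keratins, small proline-rich proteins and antimicrobial proteins.

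Expected counts summed to 19025992 to 20131513 per day 7 library, and 17215 to 17730 genes were listed in each. The defining markers of keratinocytes were present in all 8 libraries, with Krt5 at 3703–9960.5 CPM (counts scaled to the library total) with vehicle and 3882–10814 CPM with LPC. Libraries of the same group differed in muscle, fat and cartilage markers. The skeletal muscle score, the mean log2 CPM of 26 marker genes, was 4.89, 8.80, 3.38 and 8.74 in LPC mice 1 to 4 and 7.63, 6.03, 8.41 and 7.83 in vehicle mice 1 to 4. LPC mice 1 and 3 were also the lowest of all 8 in the adipocyte score (2.63 and 3.12) and the cartilage score (1.06 and 1.20). Vehicle mouse 4 stood apart from the other vehicle mice, with the lowest S100a8 (90.9 CPM against 1305 to 1959.6 CPM in vehicle mice 1 to 3), Krt6a (635 CPM against 3689.5 to 6759 CPM) and Krt16 (679.9 CPM against 3896 to 6352 CPM). These 3 genes mark inflamed epidermis and neutrophils, and vehicle mouse 4 enters every vehicle value given here.

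With LPC, 4 of 7 suprabasal keratins and 18 of 32 late cornified envelope genes fell, and none of either list rose. The lists with several rises and no fall included immediate early factors and MAP kinase phosphatases (11 of 30), NF-kB feedback genes (7 of 22) and metalloproteinases (7 of 23). Krt10, the keratin of the spinous layers, fell and was lower in all 4 LPC mice than in any vehicle mouse, and Pygl, the liver-type glycogen phosphorylase, had the smallest p of any gene and rose. Of 15782 genes tested with edgeR's quasi-likelihood model, 376 rose (2.38%) and 228 fell (1.44%) at an adjusted p below 0.05, which makes 604 (3.83%) in either direction. Of these, 253 rose and 154 fell by more than 2-fold. The median log2 fold change was 1.33 among the genes that rose and -1.28 among those that fell, beside 0.02 over all genes tested. A value in brackets after a gene is its log2 fold change, LPC minus vehicle, with ± its SE where given (n = 4 per group). All 4 LPC libraries lay above all 4 vehicle libraries in 334 of the 376 genes that rose, and below them in 220 of the 228 that fell. Over all tested genes such a separation occurred upward in 899 (5.7%) and downward in 815 (5.16%). The shares of all genes that rose (2.38%) or fell (1.44%) are the background for each count of called list members.

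The number of calls rested on single mice. Leaving out vehicle mouse 4 left 111 calls, and leaving out LPC mouse 1 left 120. Without vehicle mouse 2 or 3 there were 169 and 158, without vehicle mouse 1 or LPC mouse 3 there were 412 and 315, and without LPC mouse 2 or 4 there were 688 and 700. With the spread estimated from the 8 day 7 libraries alone, 9 genes were called in the same gene set. Every one of the 604 genes kept its sign in each of these fits. Of them 83, 63 that rose and 20 that fell, were called in all 8 fits that leave out a mouse. Those 8 fits still take the spread from the day 4 libraries as well, whereas 8 of the 604 were called with the day 7 libraries alone. On the log2(FPKM + 0.1) and log2(FPKM + 1) scales, where the median of all genes was -0.12 and -0.08, 47.1% and 52.1% of the calls were rises, against 62.3% on the count scale.

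**Figure D1:**
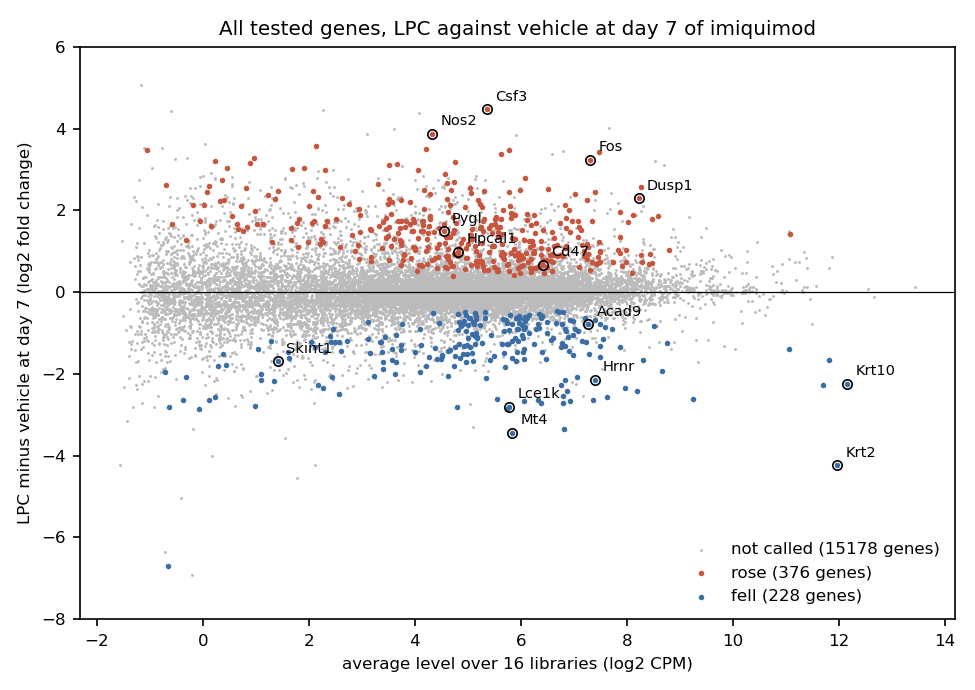
Log2 fold change of LPC against vehicle at day 7 (vertical axis) against the average level over 16 libraries (horizontal axis, log2 CPM), 1 point per tested gene, with genes that rose in red, genes that fell in blue and labelled genes ringed. The 376 genes that rose and 228 that fell lie on both sides of a cloud centred at 0.02, with Krt10 and Krt2 among the most abundant that fell.

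**Figure D2:**
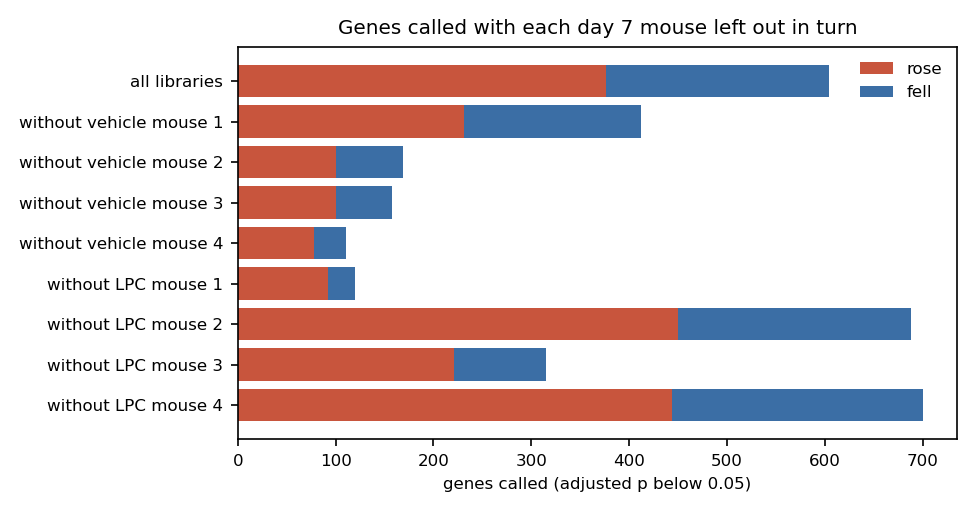
Number of genes called at an adjusted p below 0.05 (horizontal axis) with all libraries and with each day 7 mouse left out in turn (vertical axis), with rises in red and falls in blue. The bars run from 111 without vehicle mouse 4 to 700 without LPC mouse 4.

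Among suprabasal keratins 4 of 7 tested fell and none rose, with a median log2 fold change of -1.65. Krt10 (Entrez gene 16661, chr11:99385254-99397449 in build GRCm38) stood at 7951, 6598, 8528 and 8100.2 CPM in vehicle mice 1 to 4 and at 937, 2954, 1626 and 1082 CPM in LPC mice 1 to 4. All LPC mice were below all vehicle mice, with LPC mouse 1 lowest, and the log2 fold change was -2.24 ± 0.42 (SE, n = 4 per group, adjusted p = 0.015, called in all 8 fits that leave out a mouse). Krt78, a keratin of differentiated layers, fell (-1.69 ± 0.37), from 71.3–120 CPM to 18.1–44.8 CPM. Krt1, the partner of Krt10, was also called (-1.65 ± 0.43), but vehicle mouse 4 (2437 CPM) lay within the range of the LPC mice (1711–4192 CPM). Krt2, a keratin of the upper layers and of ear epidermis, varied widely among vehicle mice at 481, 3653, 1150.2 and 11000.5 CPM, and its 635, 36.7, 89.8 and 99.8 CPM with LPC overlapped them. For Krt2 the call (-4.24 ± 1.06) was kept in 2 of the 8 fits, whereas the call of Krt10 was kept in all.

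Calls among late cornified envelope proteins and their neighbours differed by subfamily. Of 32 tested, 18 fell, none rose and the median log2 fold change was -2.27. Hrnr, the filaggrin-like hornerin (Entrez gene 68723, chr3:93319749-93333572), had 218, 227, 322 and 261 CPM in vehicle mice 1 to 4 and 16.2, 87.2, 62.2 and 68.2 CPM in LPC mice 1 to 4. The groups did not overlap, LPC mouse 1 was the lowest, and the change was -2.14 ± 0.42 (adjusted p = 0.018). Loricrin (Lor), a major protein of the envelope, fell from 1824–7855 CPM to 521–1176 CPM, and filaggrin (Flg), which bundles keratins and yields moisture-holding amino acids, from 863–1158 CPM to 47.1–325 CPM. In the Lce1 subfamily 13 of 14 genes fell, with a subfamily median of -2.64. Lce1k, the member with the smallest p, had 20.4, 60.7, 28.1 and 119.7 CPM with vehicle and 6.08, 6.93, 8.04 and 11.9 CPM with LPC, a change of -2.80 ± 0.53 (adjusted p = 0.017). Vehicle mouse 4 was the highest of all in Lce1k, and no LPC mouse reached the lowest vehicle mouse. None of the 6 Lce3 genes, the subfamily induced in damaged or psoriatic skin, was called. Their log2 fold changes lay between 0.31 (Lce3e) and 0.72 (Lce3a), and the groups overlapped in each. Vehicle mouse 4 was the lowest vehicle mouse in all 6, and a difference between the subfamilies was not tested. Longest transcripts of Lce1 genes shared 71.0% to 94.1% of bases with their closest member, so the sharing of reads among them by the authors' counting makes single members uncertain. Without vehicle mouse 4 the list had 2 falls, without LPC mouse 1 it had 1 and without vehicle mouse 2 it had 5, while Hrnr was called in each.

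Of 28 claudins, connexins and desmosomal genes, 6 fell and none rose, with a median of -0.19. Gjb5, a connexin (Entrez gene 14622, chr4:127354809-127358164), had 33.1, 36.1, 46.9 and 55.5 CPM in vehicle mice 1 to 4 and 10.7, 17.5, 12 and 13.2 CPM in LPC mice 1 to 4. Every LPC mouse was below every vehicle mouse, and the change was -1.68 ± 0.30 (adjusted p = 0.013, called in all 8 fits). The desmoglein Dsg1a (-1.34), the tight junction claudin Cldn1 (-0.79) and the cornified envelope plakin periplakin (Ppl, -0.83) fell as well. Gjb2 and Gjb6, connexins known to be abundant in psoriatic epidermis, were not called and had log2 fold changes of 1.10 and 0.65. Without vehicle mouse 4 or without LPC mouse 1, Gjb5 was the 1 member still called.

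Falls kept in all 8 fits that leave out a mouse also included a protease subunit, regulators and members of the Wnt pathway. Capns2, a small subunit of calpain proteases, had 60.3, 62.9, 71.6 and 65.8 CPM with vehicle and 25, 28.4, 28.1 and 26.1 CPM with LPC. The groups lay far apart with little spread inside each, and the change was -1.28 ± 0.18 (adjusted p = 0.01). Pou2f3, a POU-domain factor of suprabasal keratinocytes and of tuft cells, fell from 58.4–91.3 CPM to 14.9–29.1 CPM (-1.83 ± 0.26). Trim62, a RING finger protein, fell from 30–39.5 CPM to 17.6–20 CPM (-0.92 ± 0.14). Wnt7b, a secreted Wnt ligand, fell (-1.30 ± 0.22), and so did Lrp4, a receptor that binds Wnt antagonists (-1.64 ± 0.27). Igfbp2, which binds insulin-like growth factors, and Rapgefl1, a guanine nucleotide exchange factor-like protein, had log2 changes of -1.24 ± 0.22 and -1.15 ± 0.18. Grhl1, a grainyhead factor of the differentiating epidermis, fell (-0.67 ± 0.17), a call kept in 1 of 8 fits. It was the 1 fall among 23 keratinocyte transcription factors and Notch genes, of which Cebpb was the 1 rise (1.03 ± 0.26). Together they were 8.7% of that list, beside 3.83% of all genes tested called in either direction.

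Barrier lipid genes and metal or retinoid enzymes held a few members that fell. Of 29 barrier lipid enzymes, the acid lipase Lipm (-1.33 ± 0.29) and the alkaline ceramidase Acer1 (-1.31 ± 0.25) fell, and the acid ceramidase Asah1 rose (0.53 ± 0.13). Calls in either direction made up 10.3% of this list, beside 3.83% of all genes tested. Mt4, the metallothionein of stratified epithelium, had 34.9, 30.5, 35.1 and 107 CPM in vehicle mice 1 to 4 and 0.722, 8.58, 4.35 and 5.35 CPM in LPC mice 1 to 4. No LPC mouse reached the vehicle range, vehicle mouse 4 was far above the other vehicle mice, and the change was -3.44 ± 0.73 (adjusted p = 0.024). The alcohol dehydrogenases Adh7, which can oxidise retinol (-1.64 ± 0.30), and Adh6a (-2.86 ± 0.57) fell among 22 genes of their list. Of 22 sterol synthesis genes none was called, although 19 had a negative log2 fold change (median -0.39).

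No member of the basal keratinocyte list (16 genes), the cell cycle list (30 genes), the small proline-rich and involucrin list (13 genes) or the wound keratin list (4 genes) passed the test, at medians of 0.29, 0.04, 0.97 and 0.84. Krt16, a wound keratin, had 6352, 3896, 5828 and 679.9 CPM with vehicle and 8959, 4403, 7448 and 4653 CPM with LPC, and Mki67, a marker of cycling cells, had 221, 215, 196 and 123 and 87.2, 132, 219.7 and 76.1 CPM. In both genes the groups overlapped, and in Krt16 vehicle mouse 4 was far below all other mice. Among 19 antimicrobial genes Slpi, an inhibitor of neutrophil elastase, rose (1.95 ± 0.46), with overlapping groups and a call kept in 3 of 8 fits. Pglyrp1, a peptidoglycan-binding protein of neutrophils, rose as well (1.60 ± 0.36), and the beta-defensin Defb6 fell (-1.04 ± 0.24).

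**Figure D3:**
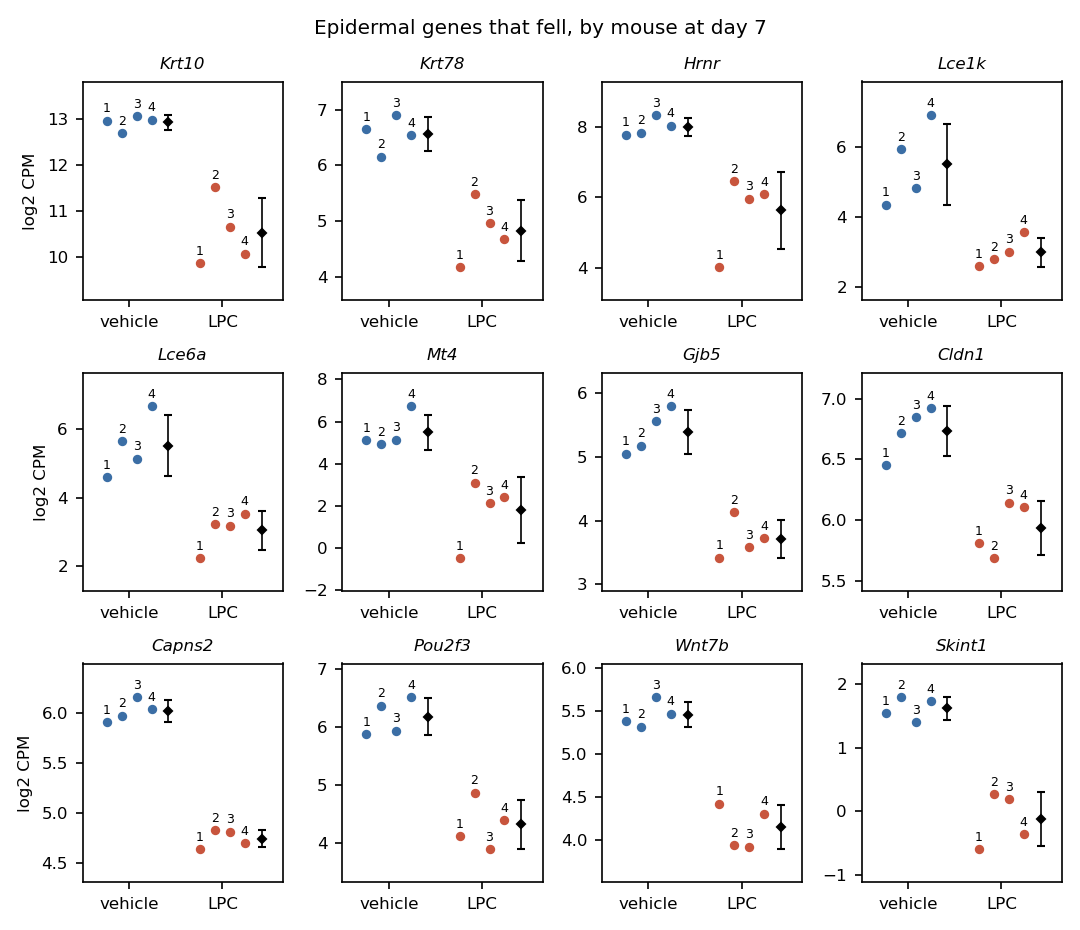
Level in each day 7 mouse (vertical axis, log2 CPM) of 12 epidermal genes that fell, with points numbered by mouse and diamonds with bars for the mean ± SD of 4 mice. Vehicle (blue) and LPC (red) points do not overlap in any of the 12 panels, and the spread is smallest in Capns2.

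Rises called in all 8 fits that leave out a mouse included both small and large changes. Pygl, which releases glucose from glycogen (Entrez gene 110095, chr12:70190815-70227683), had 17.2, 15.8, 15.1 and 12.9 CPM in vehicle mice 1 to 4 and 44.2, 32, 41.8 and 53.8 CPM in LPC mice 1 to 4. The lowest LPC mouse was well above the highest vehicle mouse, and the log2 fold change was 1.49 ± 0.17 (adjusted p = 0.0046). Hpcal1, a neuronal calcium sensor family protein (Entrez gene 53602, chr12:17690750-17791944), had 24.3, 19.8, 24.4 and 24.5 CPM and 53.3, 44.2, 42.3 and 44.5 CPM in the same order, a change of 0.99 ± 0.12 (adjusted p = 0.005). Cd47, the surface protein that inhibits engulfment by macrophages, had 80.6, 66.3, 83.1 and 75.6 CPM with vehicle and 122, 117, 122 and 126 CPM with LPC. Its LPC mice differed little from each other, with all 4 above the vehicle range, so a small change of 0.67 ± 0.10 was called (adjusted p = 0.01). Igf2bp2, an RNA-binding protein (1.60 ± 0.24), Ctsl, the lysosomal protease cathepsin L (1.02 ± 0.18), Mxd1, a MAX-binding antagonist of MYC (1.48 ± 0.23), and Slc2a6, a lysosomal hexose transporter (1.61 ± 0.25), were also called in each of these fits.

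Cytokines and growth factors with the largest rises differed widely between LPC mice. Of 24 IL-6 family and colony-stimulating factor genes, 4 rose and none fell, with a median of 0.76. Csf3, the cytokine that drives neutrophil production, had 8.18, 8.35, 5.06 and 0.734 CPM in vehicle mice 1 to 4 and 286, 17.7, 164 and 30.6 CPM in LPC mice 1 to 4. LPC mice 1 and 3 were several times higher than LPC mice 2 and 4, which were themselves above all vehicle mice (4.48 ± 1.10, adjusted p = 0.039). The IL-6 family members Lif (7.61, 11.8, 5.38 and 4.94 and 174, 11.2, 73.9 and 11.3 CPM) and Il11 (2.87, 4.95, 2.16 and 3.81 and 58.5, 5.22, 54.2 and 2.34 CPM) were also highest in LPC mice 1 and 3, and their groups overlapped, with both other LPC mice of Lif and LPC mouse 4 of Il11 inside the vehicle range. Cxcl1, a neutrophil chemokine, had 964, 47.3, 503 and 61.8 CPM in LPC mice against 15.2–64.7 CPM with vehicle (3.44 ± 0.84). Ppbp, another CXC chemokine, rose too (3.29 ± 0.71), and in both chemokines the groups overlapped. The epidermal growth factor receptor ligands Areg (3.49 ± 0.93) and Hbegf (2.25 ± 0.59) rose among 17 genes of their list. Each call was kept in 2 of 8 fits, and in Hbegf the groups overlapped. Without LPC mouse 1 or without vehicle mouse 2, 3 or 4, none of the 24 IL-6 family and colony-stimulating factor genes was called, and the adjusted p of Csf3 ran from 0.028 to 0.11 over the 8 fits. Of the panel of psoriasis cytokines, Il6 (4.38 ± 1.20, adjusted p = 0.055), Tnf (1.89 ± 0.51, 0.054), Il1b (2.18 ± 1.10, 0.29), Il17a (2.84 ± 1.30, 0.24), Il22 (1.20 ± 1.19, 0.64) and Il23a (1.35 ± 0.69, 0.3) were not called.

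Among cytokine receptors, calls went in both directions. Il17ra, a subunit of the IL-17 receptor, rose from 49.7–58.8 CPM to 74.1–99.3 CPM (0.66 ± 0.14), and Csf2rb, the shared beta chain of the GM-CSF, IL-3 and IL-5 receptors, from 48.4–66 CPM to 98–135 CPM (0.96 ± 0.22). The decoy receptor Il1r2 (1.47 ± 0.32) and the IL-33 receptor Il1rl1 (2.66 ± 0.64) rose, although the groups of Il1rl1 overlapped and its call was kept in 2 of 8 fits, whereas Il18 (-1.43) and Il1f5 (-1.11 ± 0.25), the antagonist of the IL-36 receptor, fell. Il22ra2, a soluble receptor that binds IL-22 (-1.15 ± 0.30), and Il20rb, a receptor chain for IL-20 family cytokines (-1.20 ± 0.28), fell. The calls of Il22ra2, Il20rb and Il1f5 were kept in 1, 3 and 2 of 8 fits. Those of Il17ra, Csf2rb and Il1r2 were each kept in 3. In the TNF family 4 of 23 genes rose and none fell, among them lymphotoxin beta (Ltb), with 3.85, 2.11, 3.85 and 3.28 CPM in vehicle mice and 12.3, 12.6, 7.44 and 7.89 CPM in LPC mice. The groups were apart in Ltb, and its change of 1.62 ± 0.29 (adjusted p = 0.013) was called in all 8 fits. Tnfrsf1b, a TNF receptor, rose (1.67 ± 0.35), and so did Tnfsf11, the ligand RANKL (3.58 ± 0.88). Tnfsf11 had overlapping groups, and its call was kept in 3 of 8 fits.

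Immediate early factors and MAP kinase phosphatases were the list with the most rises, 11 of 30 with none falling and a median of 1.20. Fos, a subunit of the transcription factor AP-1 (Entrez gene 14281, chr12:85473890-85477274), had 62, 31, 33.2 and 23.5 CPM in vehicle mice 1 to 4 and 794, 167, 324 and 125 CPM in LPC mice 1 to 4. All LPC mice were above all vehicle mice, with LPC mouse 1 highest and mouse 4 lowest (3.24 ± 0.52, adjusted p = 0.011). Dusp1, which inactivates p38 and JNK kinases, had 162, 110.5, 89.1 and 111 CPM and 1099.6, 346, 509 and 373 CPM, a change of 2.30 ± 0.35 (adjusted p = 0.01). Zfp36, which destabilises cytokine transcripts such as that of Tnf, had 168, 139.5, 124 and 118 CPM and 722, 307, 432 and 344 CPM, a change of 1.72 ± 0.27 (adjusted p = 0.01). Both genes had separate groups in the same order of mice, mouse 1 highest, then 3, 4 and 2. Jun (1.88), Btg2 (1.15), Dusp2 (2.16), Dusp5 (1.74) and Dusp6 (1.51) also rose, and 6 members were still called without vehicle mouse 4 and 6 without LPC mouse 1. Of 22 NF-kB feedback genes 7 rose and none fell, at a median of 0.75. Nfkbie, an inhibitor that holds NF-kB in the cytoplasm, had 13.9, 11, 9.8 and 12.2 CPM with vehicle and 29.9, 23.6, 23.6 and 23.3 CPM with LPC, without overlap (1.10 ± 0.18, adjusted p = 0.011). Tnfaip2 (1.51 ± 0.31), Traf1 (1.74 ± 0.35) and Nfkb2 (0.64) rose too, but without vehicle mouse 4, without LPC mouse 1 or without vehicle mouse 3 the list had 1 call.

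The promoters of both lists were searched on both strands and from 250 bases before to 50 after the start, for the NF-kB motif, AP-1 (TGAGTCA), CRE (TGACGTCA), the CArG box, the E-box (CACGTG) and the D-box (TTATGNAA), none of which contains another. The NF-kB motif was in 10 of 17 genes of the NF-kB list with a promoter in the table (58.8%), in 4 of the 7 that rose (57.1%) and in 9.55% of all 27025 genes searched. AP-1 was in 2 of these 17 (11.8%) and in 5.95% of all genes, CRE and the E-box each in 1 (5.88%), and the CArG box and the D-box in 0. Of 24 immediate early and phosphatase genes with a promoter in the table, the NF-kB motif was in 6 (25%), CRE in 2 (8.33%, against 2.03% of all genes), the CArG box in 4 (16.7%, against 1.81%), the E-box in 4 (16.7%, against 8.09%), and AP-1 and the D-box (3.99% of all genes) in 0. In the 11 of them that rose, the NF-kB motif and the E-box were each in 3 (27.3%), and CRE and the CArG box each in 2 (18.2%). Promoters of 3 genes called in all 8 fits are printed as the 250 bases before the RefSeq start (GRCm38.p6), 5′ to 3′ on the gene's strand, with every match to the 6 motifs in capitals. The capitals mark a CRE and an E-box in Dusp1 (chr17:26508473-26508722, minus strand), a CArG box in Zfp36 (chr7:28379229-28379478, minus strand) and an AP-1 and an NF-kB motif, in that order, in Nfkbie (chr17:45555450-45555699, plus strand). A match describes the letters and shows no binding.
Dusp1: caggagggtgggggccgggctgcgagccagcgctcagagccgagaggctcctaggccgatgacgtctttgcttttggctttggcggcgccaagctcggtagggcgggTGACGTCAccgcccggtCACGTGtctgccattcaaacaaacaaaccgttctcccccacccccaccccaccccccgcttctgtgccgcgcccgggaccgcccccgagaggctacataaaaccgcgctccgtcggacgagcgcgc
Zfp36: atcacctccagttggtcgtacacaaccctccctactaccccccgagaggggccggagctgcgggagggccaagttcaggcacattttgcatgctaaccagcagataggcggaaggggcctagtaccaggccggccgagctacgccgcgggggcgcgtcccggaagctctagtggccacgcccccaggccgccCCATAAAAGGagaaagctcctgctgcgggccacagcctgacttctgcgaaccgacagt
Nfkbie: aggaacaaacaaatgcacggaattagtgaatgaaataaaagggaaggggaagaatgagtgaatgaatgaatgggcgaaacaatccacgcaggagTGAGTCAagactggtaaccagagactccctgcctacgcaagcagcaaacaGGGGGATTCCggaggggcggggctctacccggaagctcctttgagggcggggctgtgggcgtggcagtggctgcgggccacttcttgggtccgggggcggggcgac

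Nos2, the inducible nitric oxide synthase (Entrez gene 18126, chr11:78920787-78960226), had 3.8, 4.28, 8.38 and 1.22 CPM in vehicle mice 1 to 4 and 86.1, 14.2, 70.1 and 89.2 CPM in LPC mice 1 to 4. LPC mouse 2 was well below the other 3 LPC mice and still above all vehicle mice (3.88 ± 0.71, adjusted p = 0.014, called in all 8 fits). Gch1, which starts the synthesis of the Nos2 cofactor tetrahydrobiopterin, had 15.9, 16.3, 13.1 and 14.7 CPM and 55.7, 25.4, 39.3 and 32.1 CPM, without overlap (1.34 ± 0.20, adjusted p = 0.01). These were the 2 called among 16 nitric oxide, arginine and polyamine genes. Of 27 hypoxia and glycolysis genes 6 rose, 26 had a positive log2 fold change and the median was 0.73. Pfkfb3, whose product stimulates glycolysis, had 51, 30.2, 53.8 and 36.4 CPM with vehicle and 174, 74.6, 129 and 175 CPM with LPC, again without overlap (1.69 ± 0.30, adjusted p = 0.013). It was the member called in all 8 fits, and the glucose transporter Slc2a3 (2.90), Adm (2.08 ± 0.44), Ndrg1 (1.87), Vegfa (1.75 ± 0.39) and P4ha1 (0.90) rose as well. Ptgs2, the inducible cyclooxygenase, was at 1015, 46.1, 720.0 and 92.1 CPM in LPC mice and 53.7, 15.2, 43 and 3.18 CPM in vehicle mice, and the overlapping groups just missed the threshold (4.03 ± 1.07, adjusted p = 0.0502). In stress lists Hmox1, which degrades haem (1.36 ± 0.32), the ferritin heavy chain Fth1 (1.42 ± 0.28), Gdf15 (2.37 ± 0.47) and Trib3 (1.31 ± 0.31) rose. Hmox1 and Trib3 had overlapping groups, and their calls were kept in 2 and 3 of 8 fits.

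Of 33 genes tested for LPC receptors and lysophospholipid enzymes, 2 rose and 2 fell, and the median was -0.10. Pla2g7, an enzyme that hydrolyses platelet-activating factor and oxidised phospholipids, the latter to LPC, had 39.2, 18.7, 42.9 and 20.5 CPM in vehicle mice and 78.2, 107, 80.1 and 96.4 CPM in LPC mice. Its groups did not overlap (1.58 ± 0.25, adjusted p = 0.01, called in all 8 fits). The secreted phospholipases Pla2g2f (165–242 CPM with vehicle and 68.6–109 CPM with LPC, -1.22 ± 0.27) and Pla2g3 (5.46–7.91 and 1.5–2.93 CPM, -1.35 ± 0.27) fell, also without overlap. Gpr132, a receptor linked to LPC responses, rose from 4.25–8.07 CPM to 10.7–18.7 CPM (1.16 ± 0.29). Its call was kept in 3 of 8 fits, and LPC mouse 1 (18.7 CPM) was far above the other LPC mice (10.7 to 11.1 CPM). Enpp2, which turns LPC into lysophosphatidic acid, and the acyltransferases Lpcat1 and Lpcat2 were not called, at log2 fold changes of -0.40, 0.39 and 0.44. Among eicosanoid genes Alox5ap, the partner of 5-lipoxygenase, rose (1.18 ± 0.25) and the epidermal lipoxygenase Alox12 fell (-0.79 ± 0.20).

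Of 23 metalloproteinase genes 7 rose and none fell (median 1.24). Mmp13, a collagenase, had 6.51, 8.04, 4.53 and 1.42 CPM in vehicle mice and 100.4, 10.2, 84.2 and 17.1 CPM in LPC mice, and Mmp14, a membrane-bound protease, had 226, 188, 193 and 236 and 377, 435, 294 and 302 CPM. LPC mice 1 and 3 carried most of the rise of Mmp13 (3.37 ± 0.85), while in Mmp14 (0.74 ± 0.17) all LPC mice were closer together and none overlapped with vehicle. Mmp10 (3.51 ± 0.89), Mmp9 (2.54), Adam8 (1.75 ± 0.41), Adamts1 (1.24) and Adamts4 (2.49 ± 0.58) also rose. The groups of Mmp10 overlapped, and none of the 7 was called without vehicle mouse 4, without vehicle mouse 3 or without LPC mouse 1. In the plasminogen and TGF-beta list 5 of 21 rose, with a median of 0.67. Tgfb1, the growth factor TGF-beta 1, had 54.8, 59.7, 46.1 and 57.9 CPM with vehicle and 139.8, 106, 94.7 and 82.3 CPM with LPC, all LPC mice being higher (0.95 ± 0.16, adjusted p = 0.012, called in all 8 fits). Plaur, the urokinase receptor (2.52 ± 0.56), Inhba (3.00) and Thbs1, which can activate latent TGF-beta (1.80 ± 0.38), rose too. None of 18 collagen genes was called (median 0.47), with Col1a1 at 1465, 404, 1058 and 722 CPM in vehicle mice and 487, 5276, 631 and 1074 CPM in LPC mice, where LPC mouse 2 alone was far above the rest. Of 21 angiogenic factors 5 rose, including the vessel-destabilising Angpt2 from 7.66–9.38 CPM to 13.9–32.8 CPM (1.56 ± 0.30) and placental growth factor Pgf (3.14 ± 0.73).

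The kind of myeloid gene that was high differed between LPC mice. Among 20 neutrophil markers 4 rose (20%, beside 2.38% of all genes tested), and the median was 2.33. All LPC mice were above all vehicle mice in 14 of them, a separation found in 5.7% of all genes tested. The neutrophil score was 5.05, 4.05, 4.70 and 2.28 in vehicle mice 1 to 4 and 6.79, 5.78, 6.83 and 5.56 in LPC mice 1 to 4. LPC mice 1 and 3 were the highest and vehicle mouse 4 the lowest, and the summed level of the list was 407.4 to 7261.5 CPM with vehicle and 6438.5 to 15802 CPM with LPC. Ly6g, the defining neutrophil antigen, had 0.417, 0.67, 0.896 and 0.147 CPM and 8.73, 2.16, 6.85 and 1.56 CPM (3.17 ± 0.78), and none of the 4 calls was kept without vehicle mouse 4 or without LPC mouse 1. Macrophage and monocyte genes had the opposite order, with scores of 4.80, 6.84, 4.64 and 6.30 in LPC mice 1 to 4 beside 5.37, 4.51, 5.43 and 5.18 with vehicle. Of that list 2 of 25 rose, the low-affinity IgG receptor Fcgr3 (1.57 ± 0.32) and the integrin Itgam (1.77 ± 0.46), the latter called in 0 of 8 fits, while Adgre1, the antigen F4/80, had 25.5, 8.19, 31.9 and 16.6 CPM and 5.3, 80.8, 4.51 and 90.3 CPM. LPC mice 1 and 3, low in Adgre1, were also those low in muscle, fat and cartilage markers. A fit with the muscle score as covariate called 1238 genes, 578 of them among the 604 main calls. Fat and cartilage scores were not fitted, and their part in the result was not tested.

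Some leukocyte genes were called in all 8 fits that leave out a mouse, among them Itgal, Tlr2, C5ar1 and Lcp2. Itgal, the alpha chain of the leukocyte integrin LFA-1 (Entrez gene 16408, chr7:127296139-127335137), had 10, 5.46, 8.64 and 4.74 CPM in vehicle mice 1 to 4 and 28.1, 22.9, 21.6 and 29.2 CPM in LPC mice 1 to 4. Every LPC mouse was well above the highest vehicle mouse (1.82 ± 0.24, adjusted p = 0.01). Selplg, a selectin ligand (1.54 ± 0.28), Itgb2, the partner chain of Itgal (1.59 ± 0.40, kept in 1 of 8 fits), and Icam1, their ligand (0.92), rose among 16 adhesion genes. Among 11 NADPH oxidase genes the subunit Ncf4 (1.52 ± 0.32) and the GTPase Rac2 (1.80 ± 0.37) were called as rises. Tlr2, which senses bacterial lipopeptides, had 14, 9.33, 10.7 and 10.4 CPM and 36.5, 28.5, 30.1 and 29.9 CPM without overlap (1.49 ± 0.24, adjusted p = 0.011), and its partner Tlr1 (2.04 ± 0.51, kept in 2 of 8 fits) and the RNA sensor Tlr13 (1.79 ± 0.38) rose among 23 genes of their list. C5ar1, the receptor of the complement fragment C5a, rose from 11.4–24.1 CPM to 49.1–75.5 CPM (1.83 ± 0.31, adjusted p = 0.012), and Lcp2, an adaptor of immune receptors, rose as well (1.73 ± 0.26, adjusted p = 0.01). Cd38, an NAD-degrading surface enzyme, rose (1.75 ± 0.28), called in all 8 fits.

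**Figure D4:**
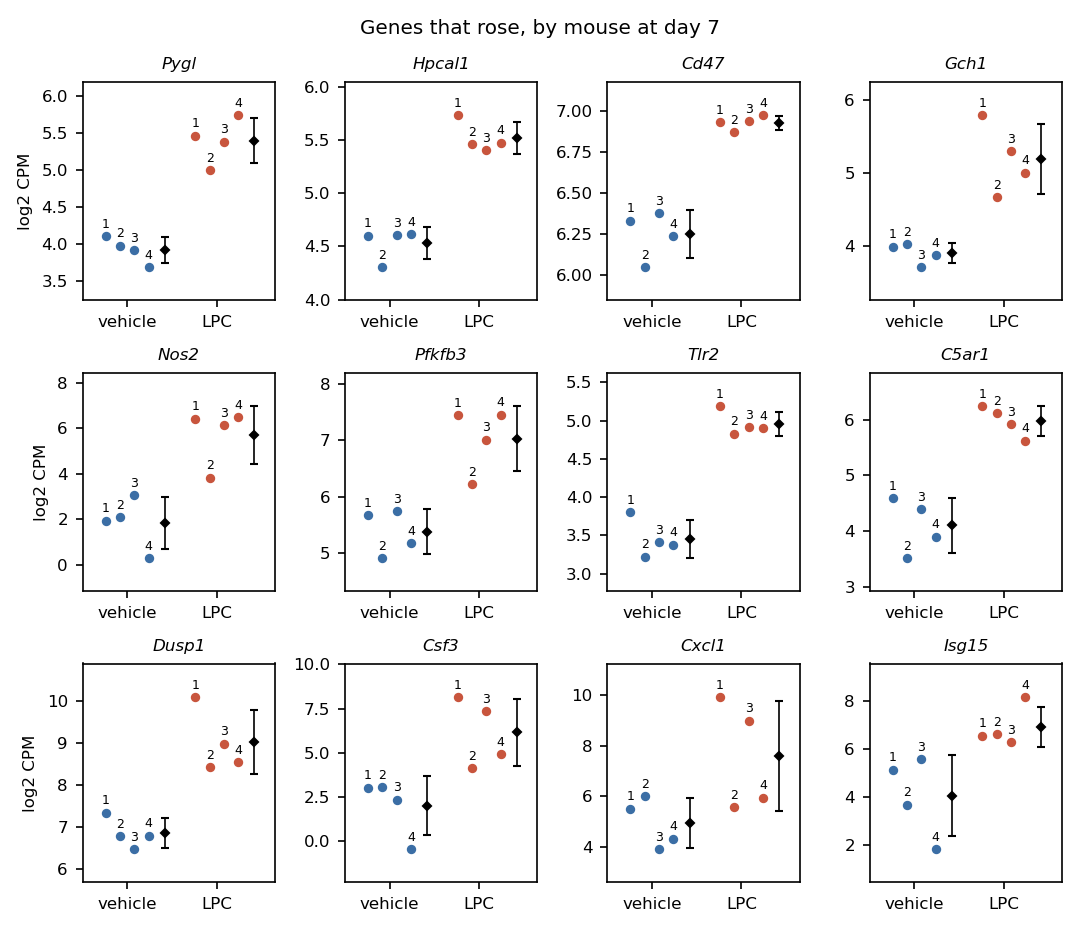
Level in each day 7 mouse (vertical axis, log2 CPM) of 12 genes that rose, with points numbered by mouse and diamonds with bars for the mean ± SD of 4 mice. Vehicle (blue) and LPC (red) points are apart in all panels other than Cxcl1, LPC mice 1 and 3 are far above mice 2 and 4 in Csf3 and Cxcl1, and LPC mouse 4 is highest in Isg15.

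Interferon-stimulated genes were positive in 24 of 24 tested (median 2.06), but 1 was called (4.2%, beside 2.38% of all genes tested that rose). Isg15, a ubiquitin-like antiviral protein, had 35.6, 12.9, 48.2 and 3.57 CPM in vehicle mice 1 to 4 and 95.3, 99.5, 79.3 and 291 CPM in LPC mice 1 to 4, with LPC mouse 4 highest and vehicle mouse 4 lowest. The change of 2.49 ± 0.66 (adjusted p = 0.048) was called in 0 of the 8 fits that leave out a mouse, with adjusted p from 0.051 to 0.12. The interferon score was 4.63, 6.28, 5.04 and 7.48 in LPC mice 1 to 4 and 4.93, 3.62, 5.17 and 2.83 in vehicle mice 1 to 4, so LPC mice 1 and 3 lay within the vehicle range. Oas1f, a member of the oligoadenylate synthetase family, went the other way, from 41.3–67.3 CPM to 8.01–17.1 CPM (-2.09 ± 0.31, adjusted p = 0.01), in all 8 fits.

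Other cell types were represented by few or no calls. None passed among 17 dendritic and Langerhans cell, 18 T and NK cell, 4 B and plasma cell, 18 fibroblast, 16 endothelial, 26 skeletal muscle, 11 muscle regeneration, 19 adipocyte, 26 hair shaft, 10 melanocyte, 14 Schwann cell and 15 cartilage markers. No tested marker of these lists was at 0 in all 8 libraries. Summed skeletal muscle markers ran from 516.8 to 26839 CPM with LPC and from 3402 to 15584 CPM with vehicle, so the groups overlapped. Mast cell markers had 1 fall, the IgE receptor chain Ms4a2 (-2.18 ± 0.57), and 1 rise, histidine decarboxylase Hdc (2.40 ± 0.62), which neutrophils also express and whose levels of 557, 128, 438 and 137 CPM followed the order of Csf3 in LPC mice. The sebaceous gland list had 1 fall of 17, Far2, which makes fatty alcohols for waxes (-1.65 ± 0.43), and Elovl6, a fatty acid elongase, fell from 329–1106 CPM to 95.3–190.3 CPM (-1.92 ± 0.46). Vehicle mouse 4 was the highest library in Far2 and Elovl6.

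**Figure D5:**
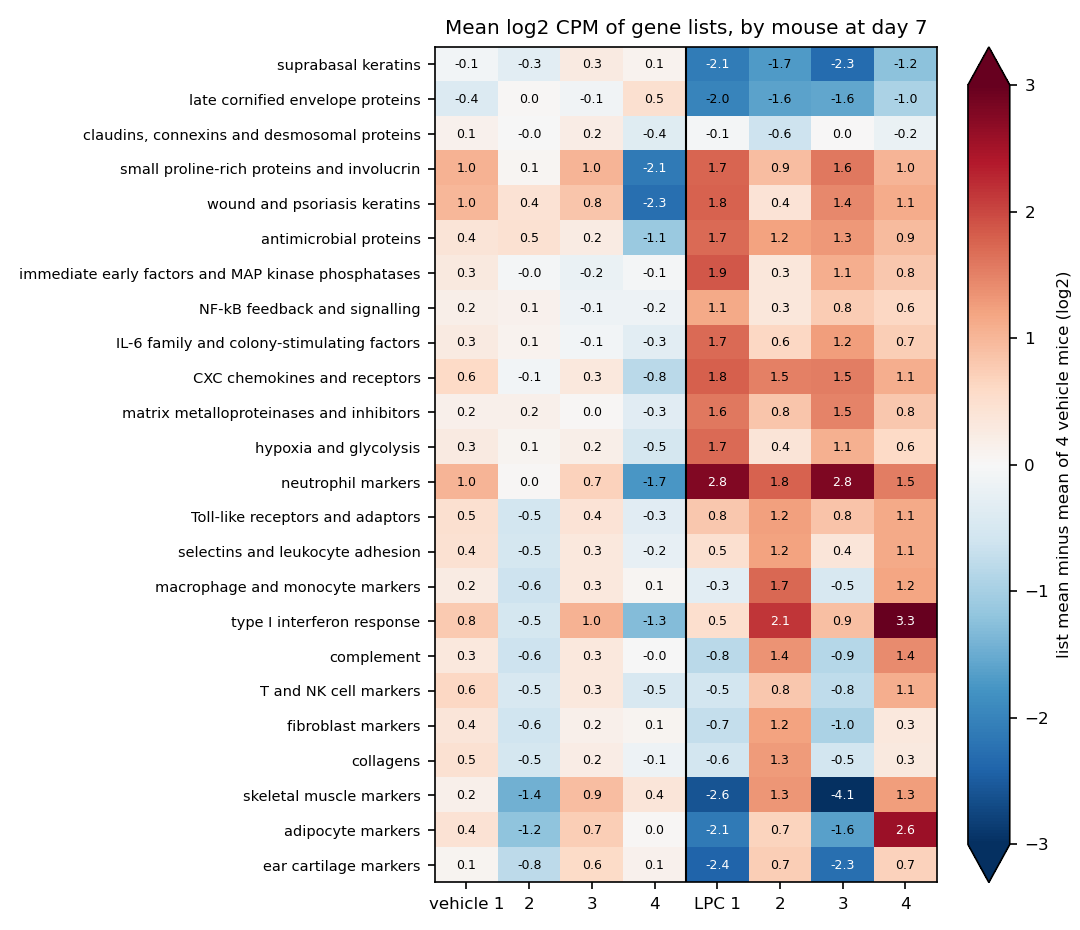
Mean log2 CPM of each gene list (vertical axis) in each day 7 mouse (horizontal axis), as the difference from the mean of the 4 vehicle mice (colour and printed value). Suprabasal keratins and late cornified envelope proteins are lower in all LPC mice, neutrophil markers higher in all, and muscle, adipocyte and cartilage markers are low in LPC mice 1 and 3.

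The next lists ranged from 0 to 3 calls. Of 24 CC chemokine genes none was called (median 1.00), with Ccl2, which attracts monocytes, at 10.1, 20, 7.38 and 10.5 CPM in vehicle mice and 26.1, 32.9, 27.4 and 53 CPM in LPC mice (1.54 ± 0.42, adjusted p = 0.053). The groups of Ccl2 did not overlap, and it missed the threshold. In lists of housekeeping functions none of 25 ribosomal protein, 24 respiratory chain, 19 fatty acid oxidation and 15 heat shock genes was called, at medians of 0.01, 0.04, -0.13 and 0.22. In the Hippo pathway 3 of 17 rose (17.6%, beside 2.38% of all genes tested). They were the kinase Lats2 (0.55 ± 0.12), its scaffold Sav1 (0.47 ± 0.11) and the matrix protein Ccn1, a target of the pathway (1.59 ± 0.36). In the same order, their calls were kept in 4, 1 and 4 of 8 fits. In wound matrix genes 2 of 23 rose (8.7%), osteopontin (Spp1, 2.80 ± 0.73) and the fibronectin receptor chain Itga5 (1.10 ± 0.26). Spp1 had overlapping groups, and the calls of Spp1 and Itga5 were each kept in 2 of 8 fits.

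Of 18 clock genes, Nfil3, a repressor that binds D-boxes, rose (42.4, 25.6, 30 and 22.8 CPM in vehicle mice and 184, 70, 108 and 84.5 CPM in LPC mice, 1.89 ± 0.29, adjusted p = 0.01), and Dbp and Hlf, activators that bind the same element, fell. The groups were apart in Nfil3, which was called in all 8 fits. Dbp had 31.2, 31.4, 31.3 and 62.3 CPM and 9.87, 20.1, 5.81 and 17.3 CPM (-1.55 ± 0.35), and Hlf had 18.1, 27.9, 25.6 and 50.4 and 11.3, 8.28, 13.2 and 10.3 CPM (-1.50 ± 0.34). In both genes vehicle mouse 4 was the highest and the groups did not overlap, but each call was kept in 3 of 8 fits. Ciart, a clock repressor, fell from 17.2–47.5 CPM to 6.9–12.4 CPM (-1.64). The hour at which mice were killed was not known here.

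The LPC mice did not contribute equally to the calls. In 190 of the 376 genes that rose, LPC mice 1 and 3 were both above mice 2 and 4, and in 64 mice 2 and 4 were both above 1 and 3, whereas over all tested genes the shares were even (33.4% and 33.8%). LPC mouse 1 was the highest LPC mouse in 202 of the genes that rose and the lowest in 126 of the 228 that fell. The sample weights of limma-voom were 0.369, 0.655, 0.422 and 0.7 for LPC mice 1 to 4 and 0.426 for vehicle mouse 4, against 4.245, 1.027 and 2.719 for vehicle mice 1 to 3.

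At day 4, in 8 other mice, 5 of the 376 rises and 0 of the 228 falls were called in the same direction by edgeR. How many of all tested genes were called at day 4 is not given here, so these counts have no background. The 5 were Rgs1 (3.01 ± 0.46 at day 4), Gdf15 (3.11 ± 0.48), Adm (2.49 ± 0.45), Hmox1 (1.78 ± 0.32) and Mmp10 (5.4 ± 0.97). Among the 376 genes that rose at day 7, 286 (76.1%) had a positive log2 fold change of LPC against vehicle at day 4, beside 50.3% of all genes, and their median at day 4 was 0.25. Of the 228 that fell, 129 (56.6%) were negative at day 4, with a median of -0.05. Fos (2.18 ± 0.50), Vegfa (1.36 ± 0.38) and Mmp13 (4.41 ± 0.88) had positive values at day 4 that did not pass the test, while Krt10 (0.69 ± 0.40), Gjb5 (0.06 ± 0.29), Itgal (-0.28 ± 0.24) and C5ar1 (-0.06 ± 0.30) did not share their day 7 direction or were close to 0. The medians of the suprabasal keratins and late cornified envelope proteins at day 4 were 0.55 and -0.11, against -1.65 and -2.27 at day 7. An LPC effect that differs between day 4 and day 7 was called for 0 of 15782 genes (0.0%) by edgeR, with 2674 at an unadjusted p below 0.05 and a lowest adjusted p of 0.058, so none of these contrasts between the days passed a test.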

How the data were processed

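Total RNA of ear skin was sequenced by the authors on a BGISEQ-500 and aligned with Bowtie2 to build GRCm38, per the labels' protocols. Genes were quantified with RSEM, per the labels. The deposited files give an expected count (an estimated count shared among genes by a model) and an FPKM value per gene, both made by the authors. Neither versions nor the strand setting were given in the sources used here. A gene missing from a library was taken as 0, which at this depth allows up to 3 counts, 0.147 to 0.181 CPM after TMM scaling, by counting error only. Groups come from sample titles; the names of the deposited tables give days 3 and 6 where titles give 4 and 7.

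Expected counts were rounded, 15782 of 19439 genes were kept by filterByExpr, and edgeR 4.0.16 (R 4.3.3) with TMM scaling was fitted to all 16 libraries with a mean per group (12 residual degrees of freedom, common dispersion 0.122). All 16 libraries share 1 estimate of spread. Calls are Benjamini-Hochberg adjusted p below 0.05 over all tested genes; SE is the log2 fold change divided by the root of the F statistic. CPM uses TMM-scaled sizes. Within groups no libraries agreed within sampling noise. Symbols and positions come from a GRCm38 annotation, which held 19307 of the genes.

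The comparison and 64 gene lists (1221 of 1231 symbols matched) were chosen with earlier results of these data known. Named genes are the 12 largest and the 12 most significant rises and falls, up to 12 genes called in every fit leaving out a mouse, up to 3 called members of each list by p or otherwise its smallest p, and a fixed panel; other list members were named to describe their list, after their values were seen. Some genes that the rule names are not reported here. Alternatives were median-of-ratios scaling, low-count filters, DESeq2 1.42.0, limma 3.58.1 (voom with sample weights, and log2 FPKM with pseudocounts 0.1 and 1), covariates, a replicate block, day 7 libraries alone and a test against 1.5-fold.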

Additional observations from a re-analysis of the deposited data

Results flagged for a closer look

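In 20 of 326 group values of named genes (6.1%, where chance gives about 5%), 1 mouse lay far from the other 3 of its group. In vehicle mouse 4 these were the neutrophil and keratinocyte proteins S100a8 (90.9 CPM) and S100a9 (84.6 CPM), Krt5 (3703 CPM) and Adam8 (44.8 CPM), all low. The same mouse was high in Mt4 (107 CPM), Dbp (62.3 CPM), Ncmap (24 CPM) and Lats2 (35.4 CPM). Of the other vehicle mice, mouse 2 was low in Hpcal1 (19.8 CPM) and mouse 3 was high in Acad9 (226 CPM), with both groups still apart.

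LPC mouse 1 was high in Gpr132 (18.7 CPM), Nfkbie (29.9 CPM) and Il22 (5.12 CPM) and low in Pla2g3 (1.5 CPM). LPC mouse 4 was high in Adh6a (15.1 CPM) and Hsph1 (79 CPM) and low in Tlr1 (34.1 CPM) and Ppbp (0.83 CPM, inside the vehicle range). LPC mouse 2 was low in Nos2 (14.2 CPM), and LPC mouse 3 was low in Far2 (78.2 CPM).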

How the results depend on the processing

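Against 604 calls (376 rises, 228 falls), the count was 9 (6, 3) with day 7 libraries only and 45 (28, 17) when these were also filtered by themselves, an alternative chosen after seeing the data. It was 210 (160, 50) with limma-voom sample weights, 1438 (937, 501) with DESeq2, 1238 (747, 491) with the muscle score as covariate, 949 (577, 372) with the hair shaft score and 0 (0, 0) when tested against a 1.5-fold change, where edgeR gave 1220 genes at an unadjusted p below 0.05. DESeq2 called all 604. Leaving out a mouse gave 111 to 700 calls, 78 to 450 rises and 28 to 256 falls. With median-of-ratios scaling there were 661, without a filter 489, with at least 1 CPM in 8 libraries 602, and with log2(FPKM + 0.1) and log2(FPKM + 1) 522 (246 rises) and 530. Genes of the main calls that were tested kept their sign in every alternative. Of 127 called genes named by the rule, 39 were called in all 8 fits leaving out a mouse.

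Among named genes, reversed values were found in uncalled ones only: Krt14 (0.12 in the main fit) was -0.30 with voom weights and -0.13 to 0.30 leaving out a mouse, Krt5 (-0.11) was -0.36 to 0.09, and Krt72 (2.47) was -0.45 to 2.95. A replicate block gave 351 calls (210 rises, 141 falls); the numbers pair no mice in the labels, and same-numbered deviations correlated at -0.08, -0.60, -0.35 and 0.15, so the block joins mice that share only a number. Counting error is small at these depths for genes well above the floor. It is larger for genes at low levels, such as Ly6g (0.147–0.896 CPM) and Gdf15 (0.369–0.979 CPM) with vehicle. The 4 mice per group limit precision.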

Other observations

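Families that the lists do not cover were read after their values were seen, so the genes below were chosen with their values known and nothing is read from their families. Skint genes, which encode butyrophilin-like proteins of keratinocytes and thymus (Skint1 is needed for the epidermal gamma-delta T cells of mice), included Skint1 and Skint10, which fell. Skint1 had 2.92, 3.45, 2.64 and 3.33 CPM in vehicle mice 1 to 4 and 0.662, 1.2, 1.14 and 0.778 CPM in LPC mice 1 to 4, and Skint10 had 5.68, 12.3, 7.64 and 13.9 and 1.87, 2.81, 2.39 and 3.74 CPM. In both the groups were apart, the changes were -1.69 ± 0.28 and -1.87 ± 0.32 (adjusted p = 0.012 for each), and both were called in all 8 fits that leave out a mouse. The Serpinb protease inhibitors Serpinb7 (-2.06 ± 0.41), Serpinb13 (-2.27 ± 0.47) and Serpinb8 (-1.13 ± 0.26) fell. Of Wnt ligands, Wnt7b and Wnt3 (-1.71 ± 0.35) fell, and Wnt7a rose from a level near the detection floor (0–0.208 CPM) to 0.363–1.81 CPM.

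The kinase Syk, which acts downstream of ITAM-bearing receptors, had 61.8, 27.2, 53.1 and 27.1 CPM with vehicle and 240.5, 111, 178 and 107 CPM with LPC (1.91 ± 0.38, adjusted p = 0.02). Its groups were apart, and LPC mice 1 and 3 were the highest. The regulators of G protein signalling Rgs1 (2.65 ± 0.45) and Rgs16 (1.89 ± 0.33) rose, called in all 8 fits.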
